A study of Mus musculus with 8 samples.

Results

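The Rb and p53 tumour suppressor circuit was followed through 8 genes, Rb1, Rbl1, Rbl2, E2f1, Cdkn2a, Mdm2, Trp53 and Cdkn1a, which were taken by symbol from the 22056 genes of single-cell transcriptomes of mouse small cell lung cancer allografts. All 8 were present in the tables and all 8 passed the filter on low counts in each comparison. The allografts were grown from N2N1G, a mouse small cell lung cancer cell line, with 1000000 cells per allograft, and were taken after 3 weeks. The 8 libraries comprised 2 brain and 3 subcutaneous allografts, both started by direct injection, and 3 liver allografts started through the tail vein, so that liver and its route of injection cannot be told apart. Living single cells had been sorted before droplet 3' RNA sequencing, which counts unique molecular identifiers (UMIs). Tumour cells were those in which eGFP, the reporter transcript, and Mycl, a MYC family gene, together made up at least 0.2% of the UMIs, and cells below 0.2% were set against them as host cells. The genotype of the line and of the recipient mice, including any deleted allele of these genes, is not given in the sources used here, and all tumour cells share the line.

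Rb1 and its relatives Rbl1 (p107) and Rbl2 (p130) encode pocket proteins that bind E2F transcription factors and restrain the genes of DNA replication until cyclin-dependent kinases phosphorylate them. E2f1 encodes an activating E2F. Trp53 encodes p53, a transcription factor activated by DNA damage and oncogenic stress, Mdm2 encodes the ubiquitin ligase that degrades p53 and is itself a p53 target, and Cdkn1a encodes p21, the p53-induced inhibitor of cyclin-dependent kinases. Cdkn2a encodes 2 proteins from different first exons, p16Ink4a, which inhibits Cdk4 and Cdk6, and p19Arf, which inhibits Mdm2, and counts of 3' ends cannot separate the 2 transcripts. Small cell lung cancer is known for loss of function of both RB and p53, and mouse models of it are commonly made by deleting parts of Rb1 and Trp53, in some models with Rbl2. A 3' count from exons outside a deleted part does not test such a deletion, so the levels of Rb1, Rbl2 and Trp53 below are levels of 3' ends of their transcripts and not of a working protein.

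The protein-coding genes lie, on the mouse build GRCm38 with GENCODE M21 annotation, on chromosome 14 from 73183673 to 73325822 (Rb1), on chromosome 2 from 157145893 to 157204534 (Rbl1) and from 154559407 to 154569892 (E2f1), on chromosome 8 from 91070057 to 91123844 (Rbl2), on chromosome 4 from 89274471 to 89294653 (Cdkn2a), on chromosome 10 from 117688875 to 117710758 (Mdm2), on chromosome 11 from 69580359 to 69591873 (Trp53) and on chromosome 17 from 29090976 to 29100727 (Cdkn1a). RefSeq promoter windows on GRCm38.p6 were read for the 250 bases before each start, which gave 9 windows for 7 of the 8 genes, with 2 windows each for Cdkn2a and Cdkn1a. Windows were searched on both strands for the E2F words TTTCCCGC, TTTCGCGC, TTTGCCGC and TTTGGCGC and for the p53 response element by its consensus with at most 1 mismatch. Rb1 had no window and was not searched, and no window of the other 7 genes held both kinds of match. The 3 windows that held a match are shown because the circuit runs through these sites in textbook accounts, with the match in capitals:

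Rbl1, E2F word 18 bases before the start, chr2:157204535-157204784, minus strand: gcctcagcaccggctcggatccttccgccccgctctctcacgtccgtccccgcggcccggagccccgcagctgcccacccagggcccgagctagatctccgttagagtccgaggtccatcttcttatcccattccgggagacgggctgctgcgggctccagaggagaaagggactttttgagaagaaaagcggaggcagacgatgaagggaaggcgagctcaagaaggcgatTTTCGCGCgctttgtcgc

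Cdkn2a, the upstream of its 2 starts, E2F word 99 bases before the start, chr4:89294620-89294869, minus strand: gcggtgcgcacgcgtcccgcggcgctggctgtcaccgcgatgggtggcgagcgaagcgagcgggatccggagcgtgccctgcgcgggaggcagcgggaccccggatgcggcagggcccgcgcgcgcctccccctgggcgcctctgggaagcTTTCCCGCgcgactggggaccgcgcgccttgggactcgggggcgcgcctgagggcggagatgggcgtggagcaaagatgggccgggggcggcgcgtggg

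Cdkn1a, the upstream of its 2 starts, p53 consensus 51 bases before the start, chr17:29090729-29090978, plus strand: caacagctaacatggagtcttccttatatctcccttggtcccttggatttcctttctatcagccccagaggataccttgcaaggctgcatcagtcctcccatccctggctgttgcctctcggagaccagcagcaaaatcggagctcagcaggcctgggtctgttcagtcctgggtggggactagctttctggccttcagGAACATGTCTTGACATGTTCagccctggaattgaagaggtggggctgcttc

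An E2F word stood in 611 of 32851 windows of all genes (1.86%), and a p53 match in 25 (0.0761%). In the list of 25 E2F target genes, 7 of 27 windows held an E2F word (25.9%), and in the 18 E2F factors and Rb partners 6 of 19 windows did (31.6%). Among p53 target genes 1 of 31 windows held a p53 match (3.23%). These are matches of letters within a short window, and known p53 elements of many target genes lie outside such windows. The window of E2f1 starts inside the annotated gene, so it does not cover the annotated start.

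Of 38460 deposited cells, 36797 passed the cell filters, and 34719 of them were tumour cells by the 0.2% rule (2418 to 6276 per library). The median tumour cell held 0.827% eGFP and Mycl UMIs at a median depth of 9566 UMIs, and the median cell below the rule held 0.0233% at 4092 UMIs. Just inside the limit, 2239 cells lay between 0.2% and 0.4%, and just outside it 430 lay between 0.1% and 0.2%. The tumour sums held 21689091 to 62047017 UMIs per library, and levels are given as UMIs per 1000000 UMIs of the sum (CPM), so a low level rests on the fewest UMIs in brain 1. Libraries shared 20 to 56 cell barcodes per pair, over 28 pairs.

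The label "host" did not hold in every library. When the 2078 cells below 0.2% were clustered, 529 fell into 2 clusters named from tumour markers, with Nfib and Uchl1 among their leading genes, and these were the larger part in 5 libraries: 49 of 57 cells in liver 1, 116 of 168 in liver 2, 77 of 90 in liver 3, 129 of 130 in subcutaneous 2 and 49 of 51 in subcutaneous 3. In brain 1, brain 2 and subcutaneous 1 they were 24 of 958, 19 of 351 and 66 of 273 cells. The other 1549 cells carried markers of macrophages, Kupffer cells, microglia, MHC class II myeloid cells, endothelium, fibroblasts or pericytes, astrocytes, oligodendrocytes and neutrophils, and 2 clusters stayed unnamed. The cluster named from Kupffer markers held 37 cells of brain 1, 44 of brain 2 and 21 of subcutaneous 1, beside 27 of liver 2. It came largely from outside the liver, and its name is uncertain there. Host values are therefore given for all cells below 0.2%, which carry the tests, and again for those outside the tumour-named clusters in the 4 libraries with at least 50 of them (brain 1, brain 2, liver 2 and subcutaneous 1). The second set was chosen with clusters built from expression, so its values are a description with no test.

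Set against host cells of the same library, tumour cells carried much more Cdkn2a and E2f1 RNA, somewhat more Trp53, and less Cdkn1a and Rbl2. Cdkn2a stood at 389, 367, 328 and 361 CPM in the tumour cells of brain 1, brain 2, liver 2 and subcutaneous 1. Host cells outside the tumour-named clusters had 27.6, 14.6, 11.98 and 9.59 CPM in these libraries. The fitted ratio was 18.9-fold (log2 fold change 4.24, SE 0.25), and no host value came near a tumour value. As a measure of free RNA, host levels of Insm1 and Chga, neuroendocrine genes that host cells should lack, were taken as a percentage of the tumour level. Host Cdkn2a was 2.66% to 3.98% of the tumour level in brain 2, liver 2 and subcutaneous 1, below Chga in all 3 (5.004% to 10.99%). It was below Insm1 in brain 2 (4.53%) and subcutaneous 1 (6.65%) but not in liver 2 (3.44%), where the host sum held 166917 UMIs of 52 cells. Whether host Cdkn2a is free RNA was not tested. In brain 1 it was 7.10%, above Insm1 (4.78%) and Chga (5.26%). By the 0.2% rule alone, cells below the limit had 34.5 and 30.2 CPM of Cdkn2a in the brain libraries and 104 CPM in subcutaneous 1, but 248 to 401 CPM in the liver libraries and the other two subcutaneous libraries, in which most such cells lay in tumour-named clusters. The rule-based fit over all 8 libraries thus gave 0.54 (SE 0.54, edgeR adjusted p = 0.433), and the fit of the 2 brain libraries alone gave 3.24 (edgeR adjusted p = 5.27e-05).

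E2f1 was 180, 169, 160 and 161 CPM in tumour cells of these 4 libraries and 15.5, 13.9, 30.0 and 22.1 CPM in host cells outside the tumour-named clusters. That is a fitted ratio of 7.72-fold, with host levels at 8.23% to 18.7% of the tumour level. Across all 8 libraries by the 0.2% rule, E2f1 rose in tumour cells by 1.84 on the log2 scale (SE 0.23, edgeR adjusted p = 3.42e-05). In that fit 4 of the 8 genes passed an adjusted p of 0.05, against 48.4% of the 14264 genes tested (25.7% higher and 22.7% lower in tumour cells), so the share of members called was near that of all genes. The other 3 were Trp53, higher by 0.58 (SE 0.15, edgeR adjusted p = 0.00625), Cdkn1a, lower at -0.87 (SE 0.16, edgeR adjusted p = 0.000676), and Rbl2, lower with -0.998 (SE 0.38, edgeR adjusted p = 0.0423). The median log2 fold change of all genes was 0.20 with TMM factors, 0.60 with library totals and -0.15 in DESeq2. The share of calls that were higher in tumour cells was 53%, 70.4% and 33.1%. E2f1 was higher and Cdkn1a lower under all 3 scalings, whereas the Trp53 call was lost in DESeq2 (0.27, adjusted p = 0.0874) and the Rbl2 call with library totals (-0.59, edgeR adjusted p = 0.196). The Rbl2 call was also lost when brain 1, brain 2, liver 2, liver 3 or subcutaneous 1 was left out (edgeR adjusted p = 0.0622 to 0.129).

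Cdkn1a and Rbl2 were the members with more RNA in host cells. For Cdkn1a, tumour cells had 122, 121, 65.5 and 188 CPM in brain 1, brain 2, liver 2 and subcutaneous 1, and host cells outside the tumour-named clusters had 255, 232, 168 and 287 CPM. The host value was above the tumour value of the same library each time, at 153% to 256% of it. Within host classes summed over libraries, Cdkn1a was 398 CPM in macrophages and 391 CPM in MHC class II myeloid cells, against 227 CPM in endothelium, 186 CPM in microglia and 183 CPM in fibroblasts or pericytes. It was lower in astrocytes (92.3 CPM), the unnamed clusters (75.9 CPM), the Kupffer-named cluster (37.6 CPM) and oligodendrocytes (20.4 CPM). Not every host class was thus above the tumour level. The last 2 values rest on 12 and 3 UMIs, and the Kupffer-named value ran from 0 CPM in brain 1 to 115 CPM in subcutaneous 1. The microglia of brain 2 had 96.9 CPM, below the 121 CPM of its tumour cells. By library, macrophages had 493, 303 and 307 CPM and MHC class II myeloid cells 366, 443 and 439 CPM in brain 1, brain 2 and subcutaneous 1, so the order of these classes turned between libraries. Rbl2, the pocket protein gene of resting cells, had the same orientation, at 8.07, 7.39, 3.58 and 6.43 CPM in tumour cells and 19.8, 16.8, 18.0 and 13.4 CPM in host cells. Its host values rest on few UMIs (91, 23, 3 and 14).

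Trp53 was 201, 147, 96.2 and 142 CPM in tumour cells and 89.0, 97.9, 95.9 and 62.3 CPM in host cells outside the tumour-named clusters. The liver 2 pair was level, and the other 3 pairs were higher in the tumour. Rb1 was 30.4, 25.2, 18.6 and 28.2 CPM in tumour cells and 17.9, 11.7, 11.98 and 13.4 CPM in host cells. Rb1 3' ends were thus counted in tumour cells at no lower level than in host cells of each of these 4 libraries. Mdm2 was 64.0, 59.3, 52.0 and 70.7 CPM in tumour cells and 38.1, 42.4, 30.0 and 28.8 CPM in host cells. The fitted ratios were 1.45-fold for Trp53, 1.58-fold for Rb1 and 1.47-fold for Mdm2, beside a median of all genes of 0.22 on the log2 scale. Rbl1 ran at 11.9, 9.15, 7.34 and 10.5 CPM in tumour cells and 6.53, 7.30, 0 and 2.88 CPM in host cells, where 0 to 30 UMIs limit its precision. In the plot of tumour and host levels, the lines of Cdkn2a and E2f1 fall steeply from tumour to host, and those of Cdkn1a and Rbl2 climb.

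**Figure D1:**
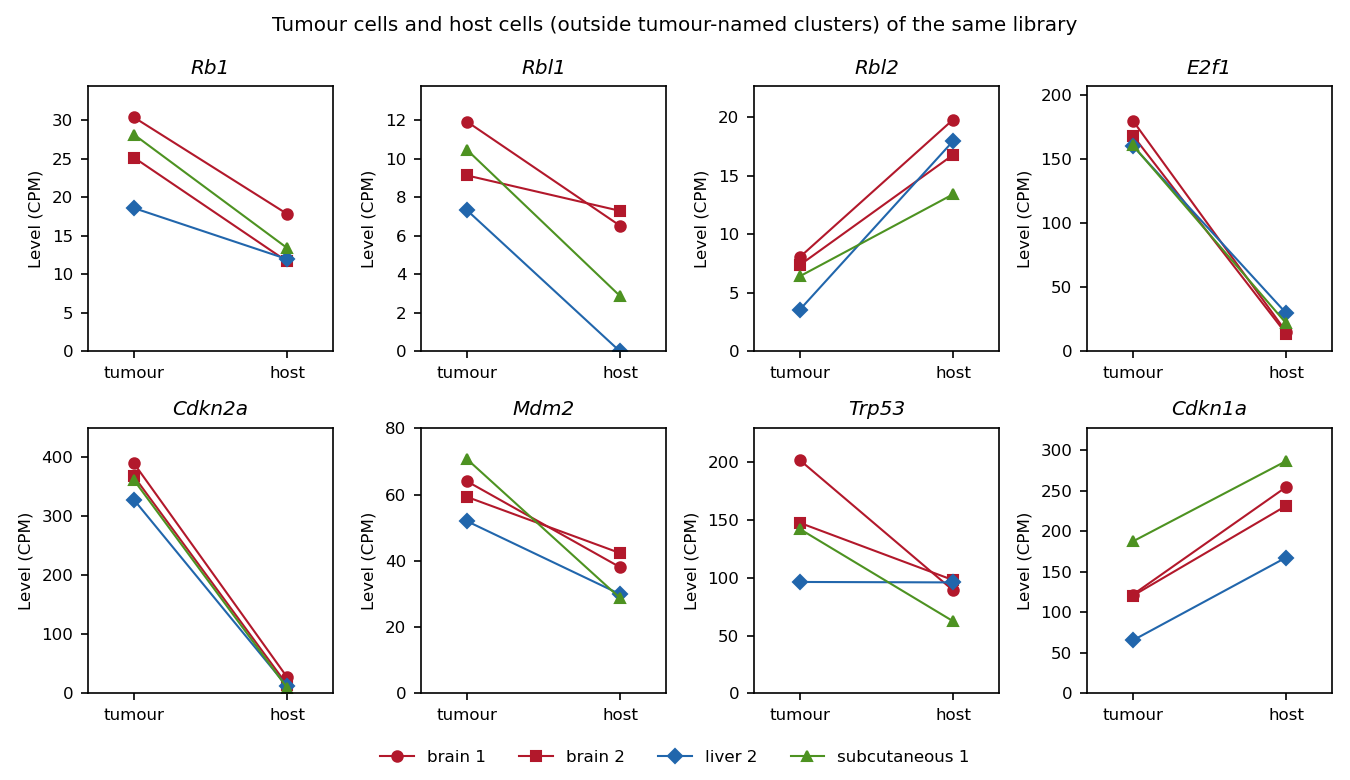
Level of each gene (CPM, axis from 0) in tumour cells and in host cells outside the tumour-named clusters; each line joins the 2 values of 1 library. Cdkn2a and E2f1 are lower in host cells of all 4 libraries, and Cdkn1a and Rbl2 are higher in host cells of all 4.

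For Cdkn2a, shares of cells pointed the same way at equal depth. With every cell thinned to 1500 UMIs, 36.5% to 43.3% of tumour cells per library had a Cdkn2a UMI. In host cells outside the tumour-named clusters, the share was 4.501% in brain 1 (exact 95% binomial interval 3.19 to 6.15), 2.84% in brain 2 (1.23 to 5.51) and 2.69% in subcutaneous 1 (0.879 to 6.16), and it was 0 of 37 cells in liver 2, where a limit of 3 counts allows a share of up to 8.11% and the exact interval ends at 9.49%. Chga, found in 38.9% to 57.5% of tumour cells, was found in 3.53% of the same host cells in brain 1 (2.38 to 5.03), 4.61% in brain 2, 5.41% in liver 2 and 2.69% in subcutaneous 1. Insm1, found in 19.3% to 31.6% of tumour cells, was found in 1.70% of them in brain 1 (0.934 to 2.84), 1.42% in brain 2 (0.388 to 3.59), 0 of 37 in liver 2 and 4.30% in subcutaneous 1. In brain 1 the Cdkn2a interval lay above that of Insm1 and overlapped that of Chga, and in brain 2 it overlapped both. In subcutaneous 1 the Cdkn2a share was not above either gene. For Cdkn1a the shares were 7.95% to 18.6% in tumour cells and 10.8% to 30.1% in host cells. These ranges overlap and are not paired by library, so they give no direction. Before thinning, median depths were 7972 to 10542 UMIs in tumour cells and 2164 to 4520 UMIs in these host cells, and intervals cover counting error only.

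The wider pathway was read from 5 lists in the rule-based fit, in which 25.7% of all genes tested were called higher and 22.7% lower in tumour cells. In 5 of its 8 libraries most cells below 0.2% lay in tumour-named clusters. Of 25 E2F target genes, 21 rose in tumour cells and none fell, with a median log2 fold change of 1.19 beside 0.20 for all genes tested. Nasp, a histone chaperone (1.67, SE 0.27), Cdc25a, a cell cycle phosphatase (1.58, SE 0.24), Ezh2, the Polycomb methyltransferase (1.47, SE 0.21), and Rpa2, a subunit of the single-strand DNA binding complex (1.40, SE 0.25), had the largest values among those with a mean of at least 5 CPM. Against host cells outside the tumour-named clusters, described with no test, all 25 were positive with a median of 2.74 beside 0.22 for all genes, and the order differed, with Exo1 (3.46), Dut (3.43) and Asf1b (3.37) first and Cdc25a at 2.01. Of 18 E2F factors and Rb partners, 11 rose and none fell, led by E2f7 (2.06, SE 0.34), E2f2 (1.90, SE 0.24) and E2f6 (1.88, SE 0.33). Among 17 cyclins, cyclin-dependent kinases and inhibitors, 10 rose and 4 fell. The cyclin E genes Ccne2 and Ccne1 rose by 1.83 (SE 0.37) and 1.82 (SE 0.27). All 3 D-type cyclin genes fell, with values of -7.84 for Ccnd2 (SE 0.58), -5.28 for Ccnd1 (SE 0.48) and -1.13 for Ccnd3 (SE 0.38). D-type cyclins are the partners of Cdk4 and Cdk6 that start the phosphorylation of Rb.

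The p53 lists were mixed. Of 31 p53 target genes tested, 4 rose and 8 fell in tumour cells, beside 25.7% of all genes higher and 22.7% lower. The share that fell was thus near that of all genes, and the share that rose was below it. Their median log2 fold change was -0.33, beside 0.20 for all genes tested. Against host cells outside the tumour-named clusters the median of the 32 targets with a value was -0.83, with 10 above 0. Bbc3, the pro-apoptotic gene of Puma, rose by 1.25 (SE 0.18), Aen by 0.96 (SE 0.21) and Gadd45a, a stress gene, by 0.77 (SE 0.25). At a mean of at least 5 CPM, Casp1 (-8.38, SE 0.62) and Pltp (-7.51, SE 0.58) had the largest negative values among called genes. Pmaip1, the gene of Noxa (-2.98, SE 0.57), and Plk2 (-2.48, SE 0.33) followed. Casp1, the inflammatory caspase, and Pltp, a lipid transfer protein, are also known as macrophage genes. Of 18 p53 regulators tested, 8 rose and none fell, among them Trp73, the p53 relative p73 (2.28, SE 0.38), the DNA damage kinase gene Atm (1.62, SE 0.41) and Trp53bp1 (1.57, SE 0.35). All edgeR adjusted p-values of the genes named in these lists were under 0.05.

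**Figure D2:**
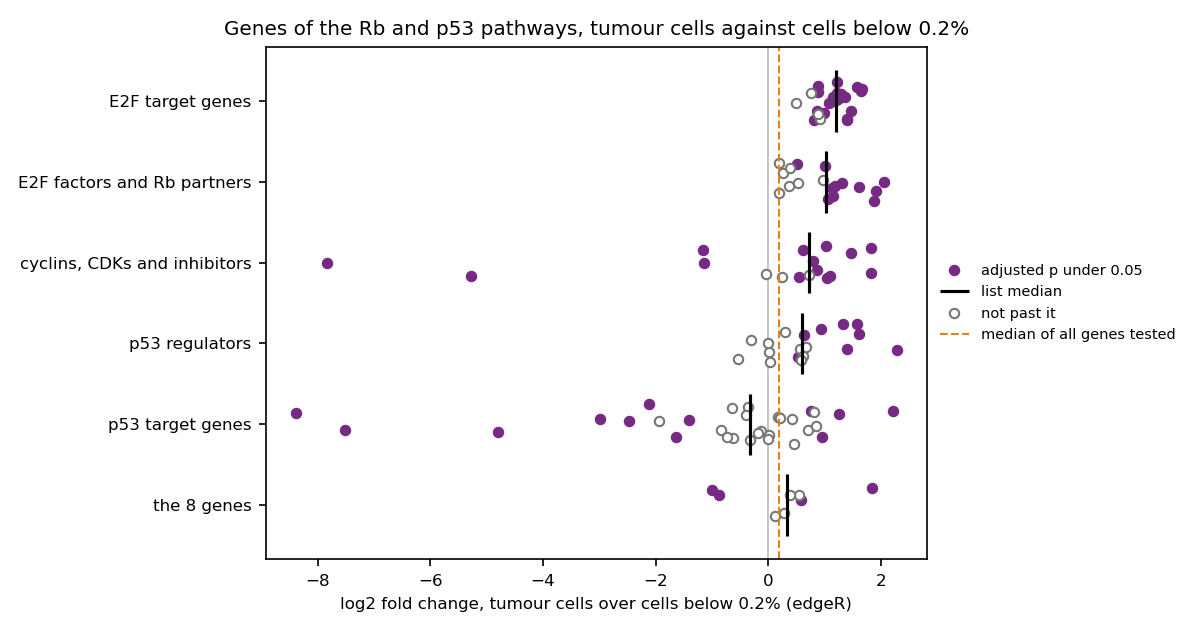
Log2 fold change of each gene of the 5 pathway lists and of the 8 genes in tumour cells over cells below 0.2% (edgeR, 8 libraries); filled points passed an adjusted p of 0.05, vertical bars are list medians and the dashed line is the median of all genes tested. All 25 E2F target genes lie right of 0, and Ccnd2, Ccnd1, Casp1 and Pltp form the far left tail.

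Within tumour cells, the 3 sites differed most clearly in Cdkn1a. Its level was 75.5, 65.5 and 98.7 CPM in liver, 122 and 121 CPM in brain, and 188, 143 and 148 CPM in the subcutaneous libraries. The 3 sites did not overlap, with liver lowest and subcutaneous highest. The share of all genes whose sites did not overlap is not given, so non-overlap here and below only describes the levels. Cdkn1a was lower in liver than in subcutaneous tumours, at -0.89 on the log2 scale (SE 0.15, edgeR adjusted p = 0.0235), the only member called in that contrast, where 2.83% of 13931 genes were called. In brain it lay between, 0.49 above liver (SE 0.17, edgeR adjusted p = 0.0630) and at -0.40 against subcutaneous (SE 0.17, edgeR adjusted p = 0.143), so neither neighbour step passed in the main fit. The brain to liver step passed in DESeq2 (0.49, adjusted p = 0.0267) and with library totals (0.60, edgeR adjusted p = 0.0377). The liver to subcutaneous call was lost without brain 1, brain 2, liver 1, liver 2 or subcutaneous 2 (edgeR adjusted p = 0.0508 to 0.130), with log2 values of -0.75 to -0.95 in those fits. Thinned to 3000 UMIs, 13.998% to 19.3% of liver tumour cells had a Cdkn1a UMI, 21.7% and 22.2% of brain tumour cells, and 27.5% to 29.8% of subcutaneous ones. For C1qa, a macrophage gene, the same shares were 0.0740% to 0.221% in liver, 11.5% in brain 1 and 1.99% in brain 2, and 0.0212% to 0.326% in subcutaneous tumour cells.

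Restricted to non-cycling tumour cells (at most 1 G2/M and at most 3 S-phase UMIs after thinning, 114 to 554 cells per library), the contrasts of Cdkn1a with subcutaneous tumours were -1.11 for liver (SE 0.13, edgeR adjusted p = 5.28e-05) and -1.05 for brain (SE 0.17, edgeR adjusted p = 0.00153). Brain and liver differed there by 0.06 (SE 0.17, edgeR adjusted p = 0.899). In the non-cycling cells brain thus lay close to liver. Whether this differs from the values over all tumour cells was not tested.

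**Figure D3:**
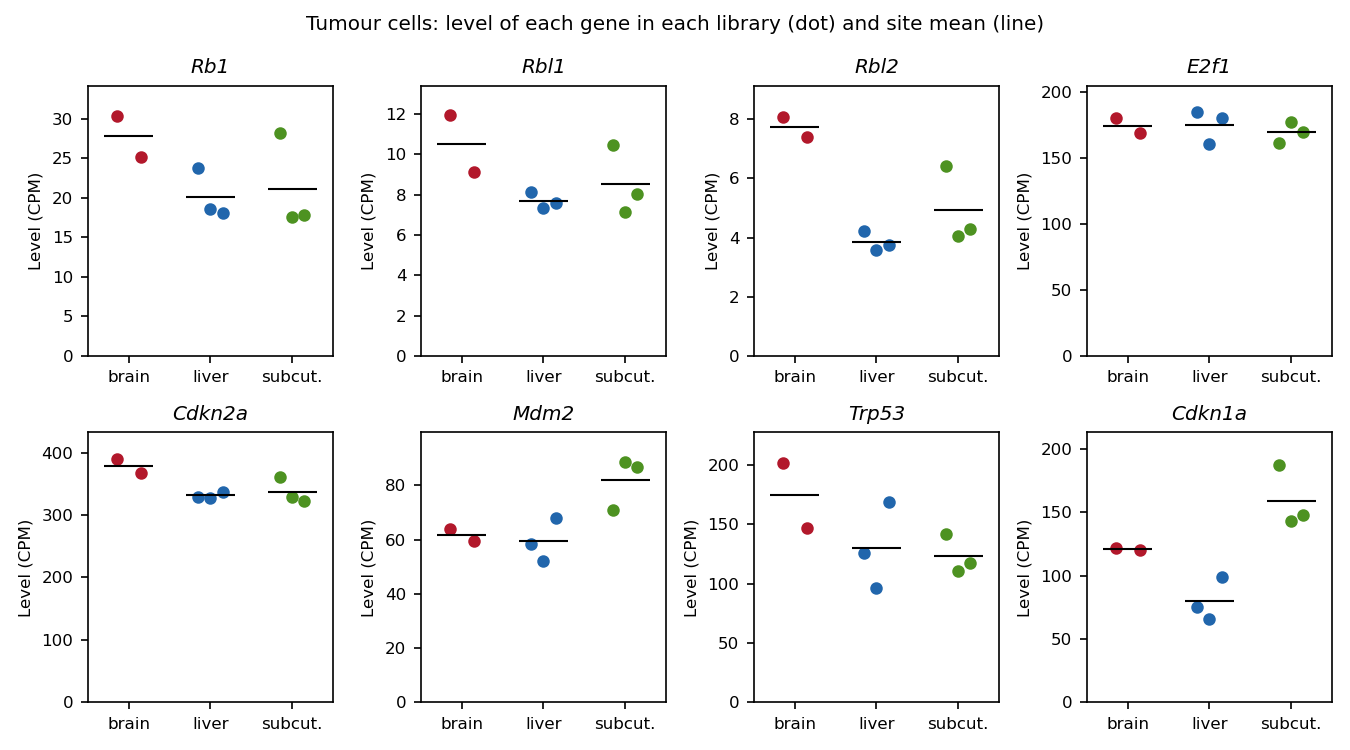
Level of each gene in the tumour cells of each library (dot; CPM, axes from 0), with the mean of the site as a line. The 3 sites are apart in Cdkn1a, and the brain libraries lie above all 6 others in Rbl2 and Cdkn2a.

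Of the pocket protein genes, Rbl2 differed by site. It was 8.07 and 7.39 CPM in brain, 4.23, 3.58 and 3.73 CPM in liver, and 6.43, 4.06 and 4.28 CPM in subcutaneous tumour cells, resting on 171 to 286 UMIs per library. Brain lay above both other sites without overlap, which describes these 8 libraries and has no share of all genes beside it. The rise over liver was 0.89 (SE 0.21, edgeR adjusted p = 0.0189), 1 member called beside 21.8% of all genes (13.2% higher and 8.56% lower in brain), and the value over subcutaneous was 0.65 (SE 0.21, edgeR adjusted p = 0.0707). The share of calls that were higher in brain than in liver was 60.7% with TMM factors and 76.5% with library totals, which moved the median of all genes from 0.00 to 0.12. The Rbl2 call was lost without brain 1, brain 2, liver 2 or liver 3 (edgeR adjusted p = 0.0518 to 0.0906), and in tumour cells free of host marker UMIs (0.69, edgeR adjusted p = 0.0517). It was also lost in non-cycling tumour cells (0.68, SE 0.52, edgeR adjusted p = 0.510). Rbl2 is higher in host cells, and the 7 macrophage markers together stood at 259 and 37.8 CPM in the tumour cells of brain 1 and brain 2, with all 7 above 0, against 0.443 to 8.44 CPM elsewhere, where at most 1 of the 7 was at 0. Beyond the fit without cells that carried such UMIs, their part in the Rbl2 value was not tested.

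Rb1 was 30.4 and 25.2 CPM in brain, 23.7, 18.6 and 18.0 CPM in liver, and 28.2, 17.5 and 17.8 CPM in subcutaneous tumour cells. Rbl1 was 11.9 and 9.15 CPM in brain, 8.16, 7.34 and 7.60 CPM in liver, and 10.5, 7.14 and 8.03 CPM in subcutaneous tumour cells. Both were highest in the brain libraries and subcutaneous 1, and brain was above liver without overlap for both, but the brain to liver values of 0.34 (SE 0.22) and 0.33 (SE 0.19) did not pass (edgeR adjusted p = 0.300 and 0.233). Subcutaneous 1 stood nearer to the brain libraries than to the other two of its site for Rb1, Rbl1 and Rbl2. Without it, brain was above subcutaneous by 0.65 for Rb1 (edgeR adjusted p = 0.0111), 0.47 for Rbl1 (0.0450) and 0.89 for Rbl2 (0.00219), while the genes called in that contrast went from 2099 to 4754.

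Trp53 varied widely within sites, at 201 and 147 CPM in brain, 126, 96.2 and 168 CPM in liver, and 142, 111 and 117 CPM in subcutaneous tumour cells. Liver 3 lay above brain 2, and no contrast passed (edgeR adjusted p = 0.147 to 0.678). Mdm2 was 64.0 and 59.3 CPM in brain, 58.4, 52.0 and 68.1 CPM in liver, and 70.7, 88.6 and 86.9 CPM in subcutaneous tumour cells. Its 3 subcutaneous values were the highest of the 8, as they were for Cdkn1a, but the values of -0.42 for brain (SE 0.14, edgeR adjusted p = 0.0696) and -0.35 for liver (SE 0.12, edgeR adjusted p = 0.159) against subcutaneous did not pass. Of the 8 genes, edgeR called 0 between brain and subcutaneous, 4 were at an unadjusted p under 0.05 (Rbl2, Mdm2, Trp53 and Cdkn1a), and DESeq2 called Rbl2 (0.66, adjusted p = 0.0443) and Mdm2 (-0.41, adjusted p = 0.0415). The background in that contrast was 15.1% (8.94% higher and 6.13% lower in brain).

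Cdkn2a and E2f1 varied least, with the highest of the 8 libraries 1.21 and 1.15 times the lowest, against 2.86 times for Cdkn1a. Cdkn2a was 389 and 367 CPM in brain, 328, 328 and 337 CPM in liver, and 361, 329 and 322 CPM in subcutaneous tumour cells, with the brain values on top. The brain to liver value was 0.08 (95% interval -0.12 to 0.27) and the brain to subcutaneous value 0.16 (-0.03 to 0.36). E2f1 was 180 and 169 CPM in brain, 184, 160 and 180 CPM in liver, and 161, 177 and 170 CPM in subcutaneous tumour cells. All 3 sites overlapped, and the intervals of its contrasts lay between -0.34 and 0.35 on the log2 scale. The plot of levels by site shows these 2 genes nearly level beside the spread of Cdkn1a.

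Few other genes of the pathway lists were called between sites. Cdkn2c, which encodes the Cdk4 and Cdk6 inhibitor p18Ink4c, was 196 and 216 CPM in brain tumour cells, 82.97, 81.8 and 88.5 CPM in liver, and 128, 91.0 and 94.6 CPM in subcutaneous ones. It rose in brain by 1.17 over liver (SE 0.14, edgeR adjusted p = 0.00146) and by 0.97 over subcutaneous (SE 0.14, edgeR adjusted p = 0.00456). Gadd45a was 120 and 112 CPM in brain, 26.6, 33.6 and 34.8 CPM in liver, and 49.3, 77.5 and 68.6 CPM in subcutaneous tumour cells. All 3 of its contrasts passed, at 1.76 for brain over liver (SE 0.18, edgeR adjusted p = 0.000864), 0.83 for brain over subcutaneous (SE 0.18, edgeR adjusted p = 0.0191) and -0.93 for liver over subcutaneous (SE 0.17, edgeR adjusted p = 0.0266). Asf1b, a histone chaperone, was 94.3 and 126 CPM in brain and 40.5 to 71.8 CPM in the other libraries, and rose in brain by 1.05 and 0.80 over liver and subcutaneous. Xpc, a sensor of DNA lesions, rose by 0.51 and 0.61, and the repressive E2F gene E2f5 fell by 0.49 and 0.53, in the same order. These brain values share their brain libraries.

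Liver fell below subcutaneous tumours in Sesn2, a stress gene (-1.60, SE 0.28), Gdf15, a stress cytokine (-1.19, SE 0.25), Cdkn1c, which encodes the kinase inhibitor p57 (-0.91, SE 0.19), and Ccne2 (-0.44, SE 0.10). Sesn2 was also lower in brain than in subcutaneous tumours (-1.65, SE 0.33), with 8.21 and 5.89 CPM in brain, 7.71, 4.14 and 8.20 CPM in liver and 15.5, 25.6 and 24.7 CPM in the subcutaneous libraries. Counted by list, p53 target genes had 4 higher and 1 lower of 30 tested between brain and liver, 2 and 2 between brain and subcutaneous, and 0 and 4 between liver and subcutaneous. The 25 E2F target genes had 1 higher and 0 lower, 1 and 1, and 0 and 0 in the same contrasts, with list medians between -0.04 and 0.12. Of all genes tested, 13.2% were higher and 8.56% lower between brain and liver, and 8.94% and 6.13% between brain and subcutaneous. The lower calls of liver against subcutaneous made up 1.90% of all genes and the higher ones 0.933%. Of these calls, 33% were higher with TMM factors and 15.7% with library totals.

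The cell cycle placed the 8 genes apart. Tumour cells thinned to 3000 UMIs were classed by 20 G2/M genes (high, at least 4 UMIs, and low, at most 1) and, among the G2/M-low, by 18 S-phase genes (high, at least 10 UMIs, and low, at most 3), with no member on either list. These classes are ranges of a score, and 11.9% to 16.0% of tumour cells per library lay between the G2/M limits and 22.7% to 28.1% between the S limits. Per library, 30.9% to 38.7% of cells were G2/M-high, 8.76% to 24.7% S-high and 3.99% to 12.5% S-low. Free RNA from cycling cells and doublets, which were not removed, can enter such scores, and their part was not tested. Members were then compared between the classes within each library.

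E2f1 had the largest difference of the 8 genes between the S classes, and it fell in the G2/M-high cells. Its level was 88.2 to 131 CPM in S-low cells (median 107) and 236 to 288 CPM in S-high cells (median 261), with no overlap and a rise in 8 of 8 libraries. This was 1.15 on the log2 scale (SE 0.06; edgeR adjusted p = 1.38e-11). From G2/M-low to G2/M-high cells it fell in all 8 libraries, from 180 to 217 CPM (median 196) to 117 to 157 CPM (median 131), which is -0.57 on the log2 scale (SE 0.04; edgeR adjusted p = 8.10e-08). As the line plot of cycle classes shows, its 8 lines run in parallel in each comparison.

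**Figure D4:**
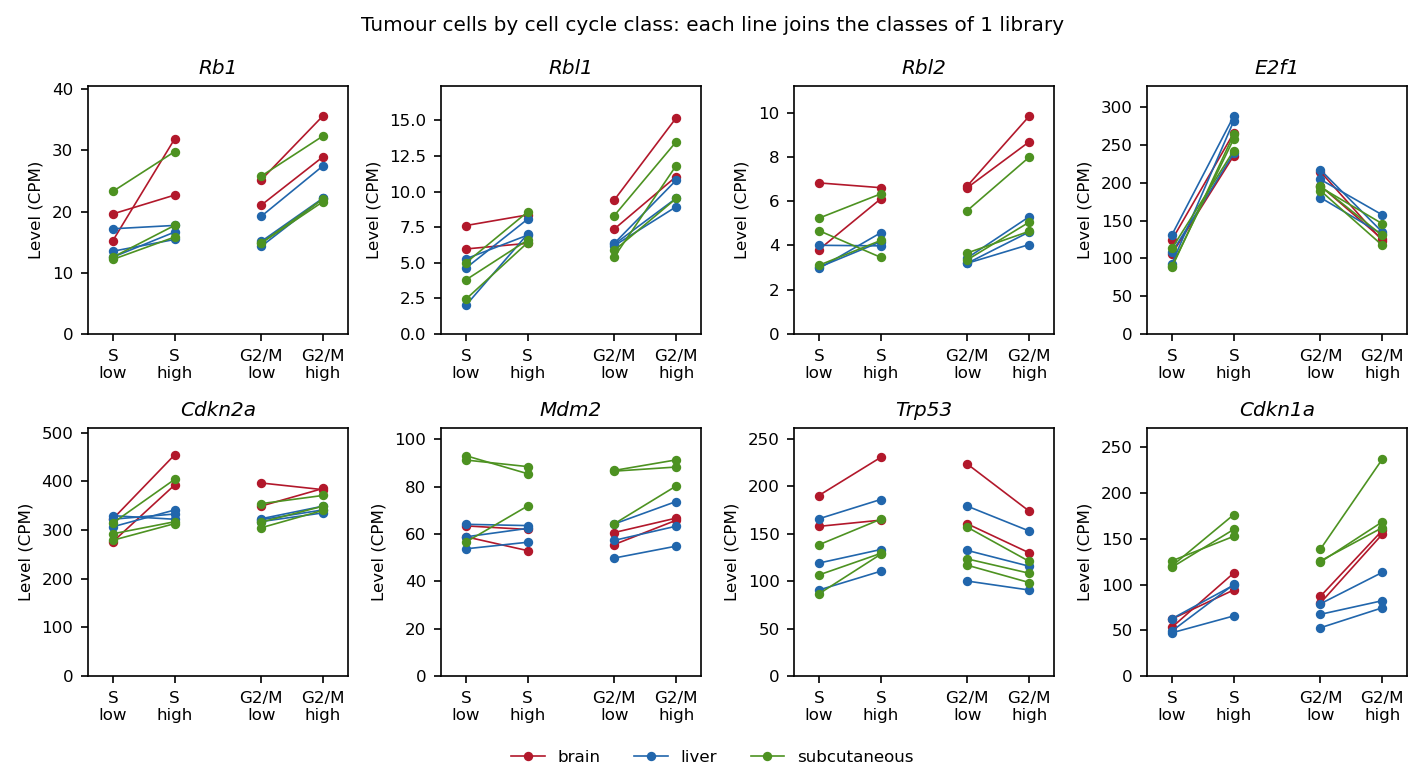
Level of each gene (CPM, axes from 0) in S-low, S-high, G2/M-low and G2/M-high tumour cells; each line joins 2 classes of 1 library, coloured by site. E2f1 climbs from S-low to S-high and drops from G2/M-low to G2/M-high in all 8 libraries, and Trp53 drops in the second comparison in all 8.

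All 8 genes were called between G2/M-high and G2/M-low cells, where 57.9% of 13360 genes were called (27% higher, 30.9% lower). The pocket protein genes rose together, Rbl1 by 0.72 (SE 0.07), Rb1 by 0.51 (SE 0.04) and Rbl2 by 0.49 (SE 0.07), each higher in 8 of 8 libraries. Rb1, for example, went from 14.3 to 25.8 CPM (median 17.2) in low cells to 21.6 to 35.7 CPM (median 24.9) in high cells. Cdkn1a rose by 0.58 (SE 0.09), from a median of 83.4 to 157 CPM. Mdm2 and Cdkn2a rose by little, 0.16 (SE 0.03) and 0.10 (SE 0.02), and Cdkn2a was higher in 7 of 8 libraries. Trp53 fell by 0.25 (SE 0.02), lower in 8 of 8. The edgeR adjusted p-values of these 7 genes were 1.23e-10 to 0.000829. G2/M-high cells were deeper, at a median of 10120 to 11849 UMIs against 7444 to 10264 in low cells, and with equal counts per cell the Rbl2 call was lost (0.26, edgeR adjusted p = 0.185). Without the library block the calls of Cdkn1a (0.61), Rbl2 (0.49), Trp53 (-0.26), Mdm2 (0.15) and Cdkn2a (0.09) were lost (edgeR adjusted p = 0.0670 to 0.377).

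Between S-high and S-low cells 3 members rose beside 39.7% of 11720 genes called (19.4% higher, 20.4% lower). Beside E2f1 these were Rbl1, by 0.63 (SE 0.17, edgeR adjusted p = 0.00396), and Cdkn1a, by 0.43 (SE 0.07, edgeR adjusted p = 0.000127). Rbl1 stood at 2.00 to 7.61 CPM in S-low cells and 6.37 to 8.57 CPM in S-high cells, higher in 8 of 8 libraries, on 4 to 25 UMIs in the S-low cells of a library. The Rbl1 call was lost with wider class limits (0.66, edgeR adjusted p = 0.0555) and without the library block (0.58, edgeR adjusted p = 0.0517), and the Cdkn1a call without the block (0.41, edgeR adjusted p = 0.273). Cdkn1a stood at 47.2 to 126 CPM in S-low and 65.7 to 176 CPM in S-high cells, and it rose within each library, although all 3 subcutaneous S-low values (119 to 126 CPM) lay above every liver and brain S-high value (at most 113 CPM). Rb1 (0.20, adjusted p = 0.0958), Trp53 (0.11, 0.0550), Mdm2 (-0.13, 0.0627), Rbl2 (0.07, 0.791) and Cdkn2a (0.06, 0.506) did not pass in edgeR. Library totals moved the median of all genes from -0.01 to 0.14 and the share of calls that were higher from 48.7% to 79.1%, and with them Rb1 (0.36), Trp53 (0.27) and Cdkn2a (0.22) passed too and Mdm2 turned to 0.03.

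Of the 25 E2F target genes, 24 rose in S-high cells and none fell, with a median of 1.10 beside -0.01 for all genes. This list shares the replication function of the S-phase genes that set the classes, so the count describes the classes as much as the list. At a mean of at least 5 CPM, Asf1b (2.26, SE 0.09), Exo1 (2.05, SE 0.18) and Tk1 (1.99, SE 0.09) had the largest values. Ccne1 rose by 2.17 (SE 0.12) and Ccne2 by 1.504 (SE 0.06), while Cdkn2b, which encodes the inhibitor p15Ink4b, had -1.35 (SE 0.18). Of 26 p53 target genes tested, 2 rose and 7 fell in S-high cells, beside 19.4% of all genes higher and 20.4% lower. Among those that fell were Sesn2 (-1.06, SE 0.22) and Gdf15 (-0.98, SE 0.25). The p53 regulator Chek1, the checkpoint kinase of S phase, rose by 0.96 (SE 0.11). The 2 ribosomal protein genes in the regulator list, Rpl5 and Rpl11, which bind Mdm2, both had -0.48 (SE 0.03 and 0.04).

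The S-phase difference of Cdkn2a was not the same at each site. S-low and S-high cells had 322 and 454 CPM in brain 1, 276 and 392 CPM in brain 2, 306 and 341 CPM in liver 1, 329 and 322 CPM in liver 2, and 322 and 333 CPM in liver 3. The subcutaneous pairs were 314 and 404, 292 and 317, and 279 and 313 CPM. Fitted per site, the log2 fold change was 0.40 in brain (SE 0.08), -0.11 in liver (SE 0.05) and 0.05 in subcutaneous tumours (SE 0.05). The interaction of class and site, a test chosen after the data had been seen, had an edgeR adjusted p of 0.000637, beside 4.03% of genes called. Scaled by library totals (CPM), liver 1 and liver 3 were higher in S-high cells, so the sign in liver depends on the scaling, and the interaction was fitted with TMM factors only. The lowest S-low sum, brain 1, held 254 Cdkn2a UMIs.

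**Figure D5:**
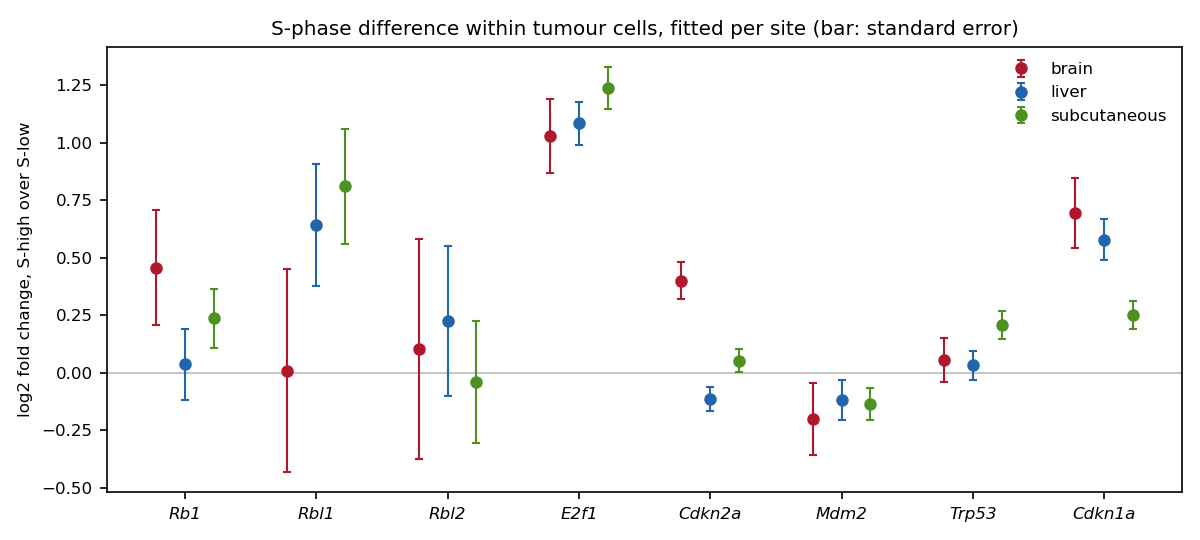
Log2 fold change of S-high over S-low tumour cells for each gene, fitted separately for brain, liver and subcutaneous libraries in 1 model (points, with standard errors as bars). The brain point of Cdkn2a at 0.40 lies above its liver point at -0.11, and the E2f1 points lie close together above 1.

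No other member differed between sites in its cycle response at an adjusted p of 0.05. The closest was Cdkn1a in S phase, with 0.69 in brain (SE 0.15), 0.58 in liver (SE 0.09) and 0.25 in subcutaneous tumours (SE 0.06, edgeR adjusted p of the difference 0.0639). In G2/M its values were 0.95 (SE 0.14), 0.44 (SE 0.11) and 0.51 (SE 0.09), with an edgeR adjusted p of 0.328 for the difference. E2f1 rose in S-high cells by 1.03, 1.084 and 1.24 in brain, liver and subcutaneous tumours (edgeR adjusted p of the difference 0.769). In G2/M, 4.41% of genes differed by site.

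The genes whose level over the 8 tumour sums was most like that of each member were ranked by Pearson's r of log2(CPM + 1), among genes with at least 10 CPM. Since 7941 or 7942 genes were ranked over 8 libraries that also share site and depth, high values are to be met by selection alone, and they are given as a description. Cdkn1a was most like Cdkn1c (r = 0.988), Fam107b (0.981) and Tmem57 (0.979), so the gene ranked closest to that of p21 was the gene of p57. Cdkn1c was 101 and 112 CPM in brain, 64.6, 51.6 and 84.2 CPM in liver, and 172, 117 and 116 CPM in subcutaneous tumour cells, the same order of sites except that brain 2 lay close to the lower 2 subcutaneous values. Rbl2 was most like Rab12, Arl2bp and Nr2f2 (0.997 to 0.994), Rb1 like Slc44a1, Ulk1 and Birc6 (0.993 to 0.978), and Rbl1 like Syngr1, Mex3d and Cask (0.991 to 0.976). Mdm2 was most like Zfand5, Qpct and Zbtb2 (0.990 to 0.982), Cdkn2a like Rnaset2a, Smarcd1 and Gm2a (0.982 to 0.977), and Trp53 like Dazap2, Cirbp and Clasrp (0.974 to 0.960). E2f1, which varied least between libraries, had the loosest match, with Slc45a1 at 0.878.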

How the data were processed

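The authors deposited whole-number counts of UMIs per gene and cell, 1 matrix per library, in the format of Cell Ranger 3.0.0 per the file headers, and the submitters' processing notes name STAR and build mm10. Barcodes had been filtered before deposit, since the lowest cell held 501 UMIs. Cells under 500 genes or over 10% mitochondrial UMIs were dropped, and doublets were not removed. Cells below 0.2% eGFP and Mycl UMIs were clustered in scanpy 1.11.5 (2000 variable genes, 20 components, 15 neighbours, Leiden resolution 0.5), and a cluster was named when at least 3 markers of a list were detected in at least 20% of its cells. Counts were summed per library and cell class and tested in R 4.3.3 with edgeR 4.0.16 (TMM factors, filterByExpr, robust quasi-likelihood fits, Benjamini-Hochberg adjustment over all genes tested), with 1 mean per site for the sites (5 residual degrees of freedom) and with library as a block for cell classes (7). CPM are UMIs per 1000000 UMIs of the summed class. DESeq2 1.42.0 served as an alternative. The labels number the allografts and do not name animals, so p-values measure the spread between these samples.

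Named genes are the 8 members and, of each list and contrast, up to 4 per direction with the largest change among those called at a mean of at least 5 CPM, plus the 3 genes most like each member at 10 CPM or more. A few genes that the rule or a marker list holds are not reported here. Members and lists were chosen with earlier results of these data known. The fits were tested on simulated counts, in which false calls between tumour and host cells exceeded the share that the threshold sets. Most small changes between brain and liver and between tumour and host cells were missed, and so were most 2-fold changes. Alternatives varied the tool, the scaling, the filters, the cell classes, the replicate number as a block and each library in turn. The host cells outside tumour-named clusters, the set of brain 1, brain 2 and subcutaneous 1, and the interaction of cycle class and site were chosen after seeing the data.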

Additional observations from a re-analysis of the deposited data

Results flagged for a closer look

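The difference of Cdkn2a between S-high and S-low tumour cells was not the same at the 3 sites. On the log2 scale brain had 0.40, liver -0.11 and subcutaneous tumours 0.05, and edgeR's test of the difference gave an adjusted p of 0.000637. Cdkn2a was higher in S-high cells in both brain libraries, in all 3 subcutaneous libraries and in 2 of 3 liver libraries on the CPM scale. The tumour cells of the brain libraries also held more macrophage marker UMIs (259 and 37.8 CPM, against 0.443 to 8.44 CPM elsewhere), and the part of these in the difference was not tested.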

How the results depend on the processing

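The counts of genes called between sites depended on single libraries. Leaving out each library in turn gave 1112 to 4557 genes for brain against liver, 383 to 4754 for brain against subcutaneous and 33 to 1024 for liver against subcutaneous, and the highest value of each came without subcutaneous 1. Non-cycling cells gave 749, 631 and 620 genes. For brain against subcutaneous, the fit of only those 2 sites gave 728 genes. For liver against subcutaneous, DESeq2 gave 1059 and library totals 713. With the replicate number as a block, brain against subcutaneous gave 1378 genes and liver against subcutaneous 229, while the correlations of same-numbered libraries ran from -0.11 to 0.34, so the numbers were not taken to pair the samples. Without the library block the G2/M classes gave 2288 and the S classes 1853 genes, and thinned counts gave 2949 for the S classes. The counts of the fits of tumour against host cells stayed within 1.5 times under every alternative run.

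Sign changes occurred only for members that had not been called. For brain against liver, Mdm2 was 0.052 with library totals, 0.001 with the replicate block and 0.025 without liver 3, and Cdkn2a was -0.19 in non-cycling cells. For liver against subcutaneous, Rb1 was -0.070 with library totals and -0.026 in non-cycling cells, and leaving out 1 library gave values down to -0.096. In the same contrast Cdkn2a was -0.026 with library totals, and Rbl1 was 0.0052 at a limit of 0.4% and 0.30 in non-cycling cells. Without 1 library, Rbl1 ran there from -0.14 to 0.14 and Trp53 from -0.020 to 0.37. For tumour against host cells, Rb1 was -0.16 in DESeq2 and -0.17 without the block, and ran from -0.047 to 0.22 without 1 library. There Rbl1 was -0.0044 in DESeq2 and -0.043 without the block, and Cdkn2a was -0.17 without the block. Between the S classes, Mdm2 was 0.027 with library totals and Rb1 -0.027 with thinned counts. Apart from what the construction of an alternative shows, the cause was not tested. Depth limits Rbl1 and Rbl2 most, in host cells and in S-low cells, and the number of 2 or 3 libraries per site limits all site contrasts.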
